A study of Mus musculus with 6 samples.

Results

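Cytosolic ribosomal proteins are the protein subunits of the ribosomes that translate the cell's own mRNAs outside mitochondria. Their mRNA levels were compared in the subventricular zone (SVZ), the stem cell niche lining the lateral ventricle of the adult mouse brain, after experimental stroke. Members were chosen by gene symbol: Rpl or Rps followed by a number, Rplp0 to Rplp2, or Rpsa, on array probe sets annotated with exactly 1 symbol, with S6 kinase genes and symbols marked as pseudogenes left out. This gave 50 members of 18193 genes with such a probe set. By symbol, they comprised 23 small-subunit members, Rps4l included, 23 large-subunit members, and the stalk proteins Rplp0 and Rplp2. The other 2 symbols, Rps19bp1 and Rpl7l1, fit the pattern but name no subunit. RefSeq (assembly GRCm38.p6) holds 89 protein-coding symbols of this pattern, and all 50 members matched it by gene ID, although Rps4l is listed there as a transcribed pseudogene. Of the RefSeq symbols, 40 were not members, and 30 of those lay on probe sets shared with other symbols. Among them were Rpl3, Rpl10, Rpl36a and Rplp1.

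The samples were 6 one-colour arrays of total RNA from the SVZ of adult male C57BL/6 mice with no genetic change named in the labels. In the MCAO group, 3 arrays came from animals 48 h after middle cerebral artery occlusion, which blocks the artery that supplies the striatum and lateral cortex, and the SVZ was taken on the side of the lesion. In the sham group, 3 arrays came from animals 48 h after sham surgery. The labels number the samples 1 to 3 in each group and do not say whether a sample is 1 mouse or a pool, so the p-values measure the spread between these samples. The SVZ is a mixed tissue: fewer cells of a type and less RNA per cell cannot be told apart.

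A ribosome has a small subunit, which reads the mRNA, and a large subunit, which joins amino acids. The subunits hold 1 copy of most of their proteins, and the lateral stalk of the large subunit, built on Rplp0, recruits the translation factors that use GTP. Many mRNAs of ribosomal proteins begin with a C followed by other pyrimidines, a terminal oligopyrimidine tract, through which mTORC1 and the protein LARP1 control their translation. Such control changes how many ribosomes an mRNA carries and need not change the mRNA level that an array measures. In the SVZ, protein synthesis is known to be low in resting stem cells and to rise when they are activated.

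Sequences around annotated transcript starts are shown for the members that the results turn on, because the start defines the tract. Each is a window of 15 bases either side of the RefSeq start (GRCm38.p6), 5′ to 3′ on the gene's strand, and capitals mark the run of C and T bases that holds the start base, where there is one.
Rplp0, chr5:115559452-115559481, plus strand: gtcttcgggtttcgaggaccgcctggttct
Rps27l, chr9:66946071-66946100, plus strand: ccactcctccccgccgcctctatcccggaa
Rps27, chr3:90213634-90213663, minus strand: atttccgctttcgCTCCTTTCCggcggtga
Rpl7a, chr2:26910792-26910821, plus strand: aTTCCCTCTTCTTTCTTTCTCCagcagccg
Rps6, chr4:86857353-86857382, minus strand: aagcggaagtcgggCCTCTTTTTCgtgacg
Rpl22, chr4:152325711-152325740, plus strand: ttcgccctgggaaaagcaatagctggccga
Rpl22l1, chr3:28805493-28805522, plus strand: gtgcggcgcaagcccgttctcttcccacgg
Rps27 and Rps6 have a C at the annotated start followed by C or T bases. Rpl7a has a run of 21 that holds its start, whose start base is a T. Rplp0, Rps27l, Rpl22 and Rpl22l1 have a G at the start, and next to it lies a run of 10 in Rpl22l1, while a run of 9 lies a few bases before it in Rps27l. Rps27l and Rpl22 have another annotated start each, also with a G.

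The promoter table held 52 starts of 44 members. A C at the start base that opened a run of 5 or more bases, each C or T, reading downstream on the gene's strand, was found at 8 of these 52 starts (15.4%), against 2.51% of 32851 mouse promoters of the same length. These 8 starts belonged to Rpl14, Rpl35, Rpl38, Rplp2, Rps6, Rps10, Rps18 and Rps27. A run of 8 or more that touched the 10 bases either side of the start was found at 20 of 52 (38.5%), against 13.7% of all promoters. A shift of the annotated start by a few bases moves a gene into or out of these counts, and a match is a description of the letters only.

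The ribosomal protein mRNAs were slightly higher after MCAO, by a median of 0.10 log2 over the 50 members, while the median of all genes was -0.0064. On arrays brought to the same distribution by quantile normalization, 45 of 50 members had a higher mean in MCAO (90%), against 47.7% of all genes. Most of these differences did not pass the test. A single member, Rplp0, rose past an adjusted p of 0.05 (limma, Benjamini-Hochberg over all genes), or 2% of members beside 1.12% of all genes. None of the 50 fell, where 0.0165% of all genes did. At an unadjusted p below 0.05, limma found 9 members higher and 0 lower, beside 1151 higher and 447 lower of all 18193 genes. Members of one complex on the same arrays are not replicates of each other, so the count of members that were higher carries no error of its own.

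**Figure D1:**
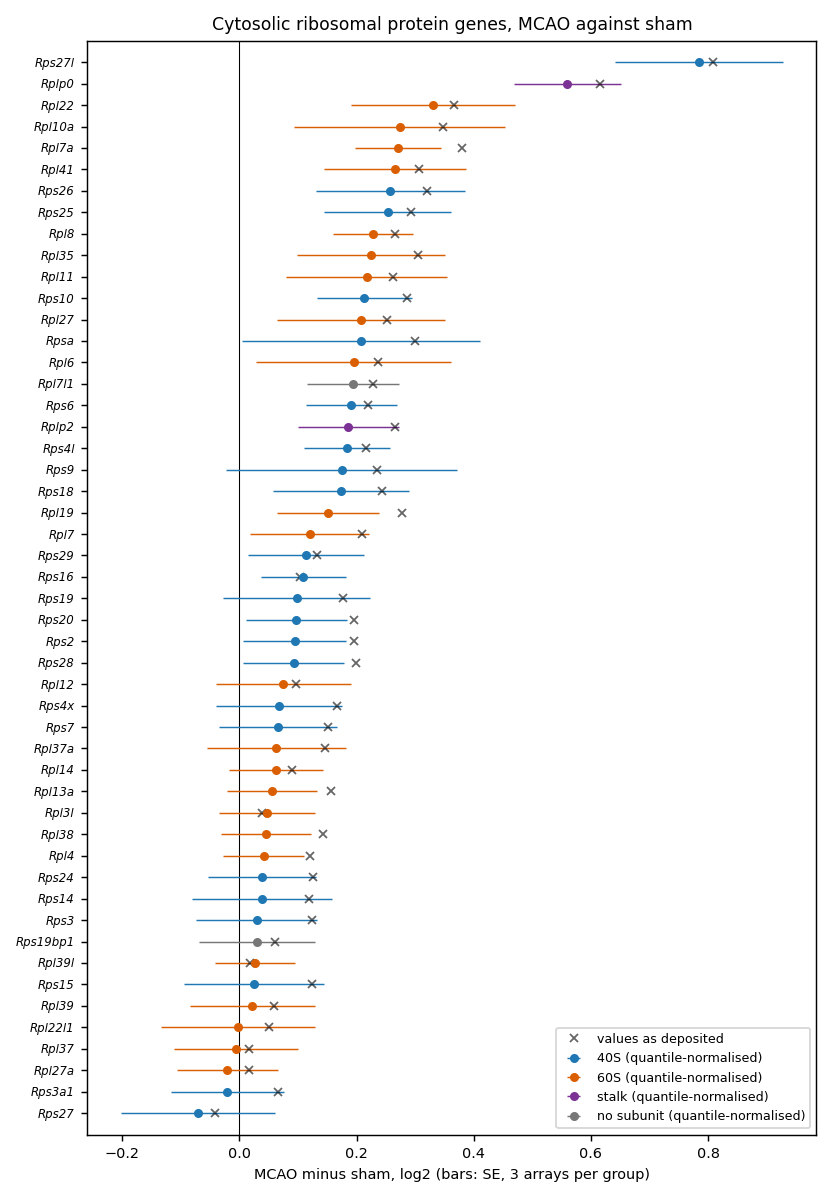
MCAO minus sham difference of each of the 50 members in log2 units, coloured by subunit (40S, small; 60S, large), as points with bars of 1 SE from the limma fit over 3 MCAO and 3 sham arrays, and crosses for the values as deposited. Rps27l at 0.78 and Rplp0 at 0.56 stand furthest to the right, and 45 of 50 points lie above 0.

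The size of the shift depended on the scaling of the arrays. On the values as deposited the median of members was 0.20 with 49 of 50 higher (98.0%, against 52.8% of all genes, whose median was 0.0072), and after shifting each array to a common median it was 0.18. Rplp0 and Rps27l were called on the deposited values, 4% of members beside 1.03% of all genes. The per-array median over members was 12.21, 12.35 and 12.26 on MCAO arrays 1, 2 and 3, and 12.11, 12.28 and 11.997 on sham arrays 1, 2 and 3. The groups overlapped in this measure, since sham 2 lay above MCAO 1 and MCAO 3.

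Each MCAO array was also set against the sham array of the same number. The median over members was 0.092, 0.080 and 0.15 in pairs 1, 2 and 3, and 0.13, 0.29 and 0.13 on the deposited values. In all 3 pairs, 31 of 50 members were higher (62%, against 20.0% of all genes), and 0 were lower (against 19.9%). With the sample number as a block, limma called 4 members higher, Rplp0, Rps27l, Rpl7a and Rpl22, which is 8% of members beside 4.83% of all genes. It called 0 members lower, beside 1.30% of all genes.

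A stricter description asks for all 3 MCAO values above all 3 sham values. This held for 9 members (18%, against 8.44% of all genes): Rplp0, Rplp2, Rps27l, Rpl7a, Rpl8, Rps10, Rps6, Rps4l and Rpl7l1. No member had all its MCAO values below its sham values, as 5.37% of all genes had. On the deposited values the number was again 9, beside 1664 of all 18193 genes. Of these 9, 6 were shared with the first list, beside 1279 of all genes that were separate on both scales. Rps10, Rps6 and Rps4l overlapped between groups on the deposited values. With 3 against 3 arrays, an exact permutation test of 1 gene cannot give a 2-sided p below 0.1.

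Among the stalk proteins, Rplp0, the base on which the stalk assembles, measured 12.24, 12.29 and 12.19 log2 in MCAO and 11.57, 11.85 and 11.63 in sham. Each MCAO value was above each sham value by at least the spread within either group. The difference was 0.56 ± 0.091 (SE, n = 3 and 3), or 1.47-fold, with an adjusted p of 0.0363 (limma) and 0.00114 with the block. The pairs gave 0.67, 0.44 and 0.57. The call was lost with any of 5 arrays left out: the adjusted p was between 0.0736 and 0.200 when MCAO 1, MCAO 2, MCAO 3, sham 1 or sham 3 was left out, and 0.0365 without sham 2. The adjusted p was 0.0527 after shifting arrays to a common median.

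Rplp2, which sits on Rplp0 as a partner of Rplp1, measured 12.64, 12.59 and 12.62 in MCAO and 12.46, 12.29 and 12.55 in sham. Its groups did not overlap, but its difference of 0.19 had an adjusted p of 0.630 (limma). The Rplp0 difference exceeded that of Rplp2 by 0.37 log2 (exact permutation, 2-sided p = 0.1, the smallest these arrays can give; 0.167 after Benjamini-Hochberg over 5 paralog or partner pairs).

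Among the 23 small-subunit members, 21 were higher and the median difference was 0.098. The largest difference was that of Rps27l, a close paralog of Rps27 known as a target of the tumour suppressor p53. Its levels were 9.32, 9.64 and 9.39 log2 in MCAO and 8.58, 8.95 and 8.46 in sham, without overlap. The difference was 0.78 ± 0.14 (SE), or 1.72-fold, with an adjusted p of 0.0566 by limma, 0.0475 on the deposited values and 1.56e-04 with the block. The pairs gave 0.74, 0.68 and 0.94. All 3 probe sets of Rps27l were higher, by 0.78, 0.72 and 0.75.

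Rps27 itself, a zinc finger protein of the small subunit, measured 6.84, 7.23 and 7.13 in MCAO and 6.996, 7.35 and 7.07 in sham, with overlapping groups. Its difference of -0.071 was the lowest of all members, and its sign turned when MCAO 1 (0.042) or sham 2 (0.034) was left out. A probe set shared by Rps27 and its copy Rps27rt gave -0.052. The Rps27l difference exceeded the Rps27 difference by 0.86 log2 (exact permutation, 2-sided p = 0.1; 0.167 adjusted over the 5 pairs), with 0.89, 0.80 and 0.88 in the 3 pairs. In the windows above, the run of 9 in Rps27 holds its start, whereas the run of 9 at the first annotated start of Rps27l ends before it.

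Rps10, a protein of the small subunit's head, measured 12.69, 12.83 and 12.80 in MCAO and 12.48, 12.66 and 12.54 in sham, a difference of 0.21 with an adjusted p of 0.467 (limma). Rps6, whose protein is the classical target of S6 kinase, measured 8.44, 8.41 and 8.29 in MCAO and 8.21, 8.24 and 8.12 in sham. The Rps6 groups did not overlap, but the difference of 0.19 had an adjusted p of 0.507 (limma), and the array measures the mRNA, not the phosphorylation of the protein. The other probe set of Rps6 alone gave -0.041, and the mean of its probe sets 0.075. Probe sets shared with its pseudogene Rps6-ps4 went both ways, from -0.11 to 0.059. The brightest of these, at 13.25 in MCAO and 13.21 in sham, gave 0.032. Rps4l measured 8.20, 8.13 and 8.05 in MCAO and 7.97, 7.91 and 7.96 in sham, with a difference of 0.18.

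Rps18, often used as a reference in quantitative PCR, measured 12.02, 12.32 and 12.29 in MCAO and 11.87, 12.19 and 12.04 in sham. The groups overlapped, and the difference of 0.17 had an adjusted p of 0.840 (limma). It was 0.33 (adjusted p = 0.783 by limma) from the probe set chosen when those with names ending in _s_at or _x_at were left out. Rps3a1 was the other small-subunit member with a lower mean, by -0.021, and it was higher on the deposited values (0.067).

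**Figure D2:**
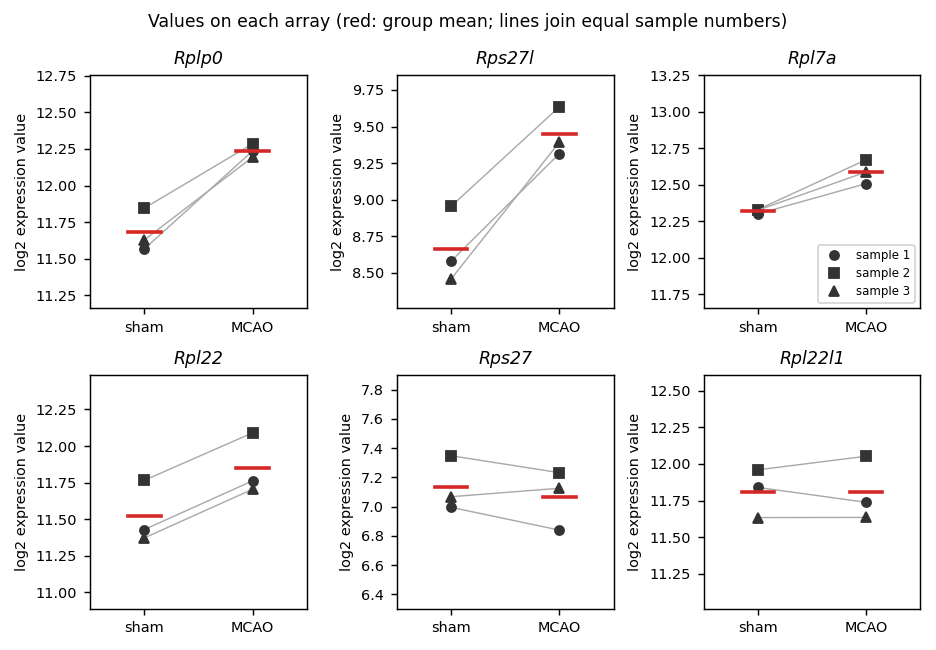
Quantile-normalised log2 value of selected members on each array, with sham and MCAO side by side, 1 symbol per array, lines joining arrays of the same number and bars at group means. Rplp0, Rps27l and Rpl7a have all MCAO points above all sham points, whereas those of Rps27 and Rpl22l1 interleave.

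Among the 23 large-subunit members, 20 were higher and the median difference was 0.075. Rpl7a, a core protein of the large subunit whose start window holds the long pyrimidine run, measured 12.51, 12.67 and 12.59 in MCAO and 12.30, 12.33 and 12.33 in sham. Its lowest MCAO value was above its highest sham value. The difference of 0.27 ± 0.074 (SE) had an adjusted p of 0.215 by limma and 0.0456 with the block.

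Rpl8, a protein close to the peptidyl transferase centre, measured 11.79, 11.83 and 11.76 in MCAO and 11.61, 11.57 and 11.52 in sham. The groups were separate, and the difference of 0.23 had an adjusted p of 0.281 by limma and 0.0818 with the block.

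Rpl22, an RNA-binding protein on the outer face of the large subunit, measured 11.76, 12.09 and 11.70 in MCAO and 11.43, 11.77 and 11.37 in sham. The groups overlapped because both arrays numbered 2 were high, while the difference within each pair was nearly constant, at 0.33, 0.32 and 0.33. The difference of 0.33 ± 0.14 (SE) had an adjusted p of 0.549 by limma without the block and 0.0157 with it. The other probe sets of Rpl22 gave 0.25 and 0.11, and Rpl22 was not called with the block when the probe sets of each gene were averaged.

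Rpl22l1, the paralog that the Rpl22 protein is known to repress, measured 11.74, 12.05 and 11.63 in MCAO and 11.84, 11.96 and 11.63 in sham. Its difference was -0.0025, with overlapping groups, and 0.050 on the deposited values. The Rpl22 difference exceeded that of Rpl22l1 by 0.33 log2 (exact permutation, 2-sided p = 0.1; 0.167 adjusted over the 5 pairs), and by 0.44, 0.23 and 0.33 in the pairs.

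The remaining pairs differed less. Rpl7l1, a paralog of Rpl7 with a role in ribosome assembly, measured 7.98, 8.17 and 8.14 in MCAO and 7.94, 7.88 and 7.90 in sham, a difference of 0.19, beside 0.12 for Rpl7 (exact permutation p = 0.8 for the difference between them). Rpl39l, a paralog mainly known from testis, differed by 0.026 and Rpl39, a small protein of the exit tunnel, by 0.022 (exact permutation p = 1). Rpl3l, the striated muscle paralog of Rpl3, differed by 0.047. Mean levels in MCAO and sham were low, at 6.06 and 6.03 for Rpl39l and 5.90 and 5.86 for Rpl3l, where background signal weighs more. Rpl39 averaged 7.34 and 7.32, and a brighter probe set that it shares with Gm32211 gave 0.066.

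Rpl13a, another frequent reference gene, measured 12.86, 12.93 and 12.97 in MCAO and 12.93, 12.78 and 12.89 in sham, a difference of 0.056 with overlapping groups. Rpl27a (-0.021) and Rpl37 (-0.0065) were lower on the quantile-normalised scale and higher on the deposited one (0.015 and 0.017). On the quantile-normalised scale, the brightest probe sets that they share with copies gave 0.081 for Rpl27a and -0.075 for Rpl37.

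Much of the spread between arrays followed the sample number. For the median member, the number accounted for 67.3% of the sum of squares over the 6 arrays, the group for 23.2% and the rest for 6.03%. For the median gene these shares were 52.0%, 13.5% and 18.4%. The number has 3 levels and the group 2, so the number takes a larger share than the group even without an effect of either. The number took the larger share in 37 of 50 members (74.0%), close to 73.6% of all genes. Because of the unequal number of levels, most genes would give this order without any effect, so the count cannot show one. Across the 50 members, the deviations of same-numbered arrays from their group means had correlations of 0.85, 0.60 and 0.57 for numbers 1, 2 and 3. These points share arrays and scaling, so the correlations are a description.

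The members with the widest spread moved in opposite directions. Rpsa, the laminin receptor protein of the small subunit, measured 12.19, 12.71 and 12.71 in MCAO and 11.96, 12.66 and 12.37 in sham, so that array 1 was lowest in both groups. Its difference of 0.21 was 0.12 with its probe sets averaged. Rpl10a, a large-subunit protein used to tag ribosomes in mice, measured 12.10, 12.54 and 12.39 in MCAO and 11.82, 12.45 and 11.94 in sham. Rps9, a small-subunit protein, measured 12.30, 11.94 and 11.59 in MCAO and 12.09, 11.63 and 11.59 in sham, with array 1 highest in both groups. Rpl6, of the large subunit, measured 12.54, 12.21 and 12.04 in MCAO and 12.35, 12.02 and 11.83 in sham, with array 1 again the highest.

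The arrays numbered 1 differed from the mean of the other arrays by -0.54 for Rpsa and -0.37 for Rpl10a, and by 0.50 for Rps9 and 0.42 for Rpl6. They were lowest in both groups for 12 members (against 26.3% of all genes) and highest in both for 10 (against 18.6%). Without both of them, 46 of 50 members were higher with a median of 0.12, and limma called 0 members, Rplp0 having an adjusted p of 0.0914. The 27 probe sets of the manufacturer's bacterial poly(A) control transcripts also averaged lower on both arrays numbered 1 (7.46 and 7.71 log2) than on the others (8.33 to 8.83), and their part in these values was not tested.

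**Figure D3:**
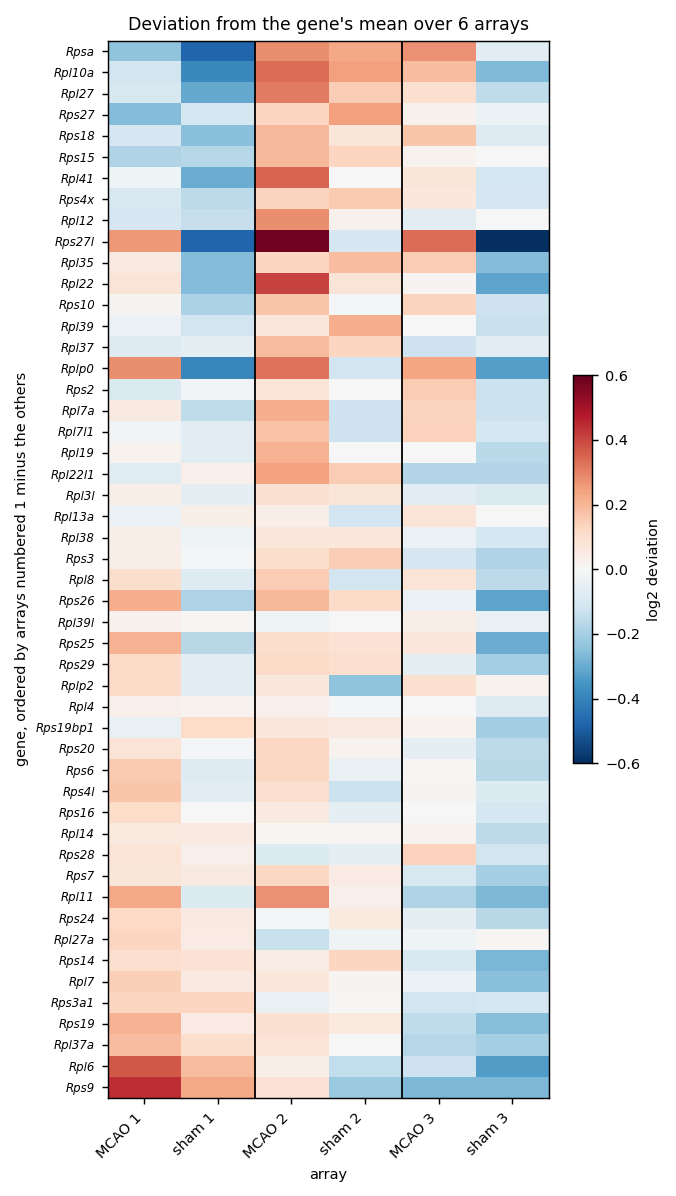
Deviation of each member (rows) from its own mean over the 6 arrays (columns, same-numbered arrays side by side), in log2 units from blue (below) to red (above), with rows ordered by the difference between the arrays numbered 1 and the others. Rpsa and Rpl10a at the top are low on both arrays numbered 1, and Rpl6 and Rps9 at the bottom are high on both.

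The mouse genome holds many processed copies of ribosomal protein genes, so a large share of the array's ribosomal probe sets carries more than 1 symbol. Members had 106 probe sets of 1 symbol, of which 90 were higher (84.9%, against 44.6% of all 45037 probe sets), with a median of 0.096. A further 104 probe sets were shared between a ribosomal protein gene and its predicted genes or pseudogene copies. Of these, 81 were higher (77.9%), with a median of 0.066. Of the 106, limma called 1 higher, that of Rplp0 (0.943%, against 0.553% of all probe sets), and 5 with the block, those of Rplp0, Rpl22 and the 3 of Rps27l (4.72%, against 2.34%). Of the 104 shared probe sets it called 0 higher, and 1 with the block: a probe set shared by Rpl32 and a copy, with a difference of 0.36 and an adjusted p of 0.0292.

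Taking for each ribosomal protein its brightest own or shared probe set gave 76 genes, 26 of them not members. Of the 76, 70 were higher and the median difference was 0.088. A brighter shared probe set existed for 11 members. Among the 24 members with several probe sets of their own, 8 had another one with the opposite sign, and none of those passed an unadjusted p of 0.05 in limma. Of 6 probe sets shared with another gene, that of Rpl13 and Tax1bp3 was called (0.70, adjusted p = 0.0157 by limma). The probe sets that Rpl13 shares with its pseudogene Rpl13-ps6 were brighter and gave 0.073, 0.11 and 0.16, none of them called. For shared probe sets, signal from the gene and from its copies or another gene cannot be told apart.

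The difference also varied with the brightness of the probe set. Among own and shared ribosomal probe sets, the median difference was 0.028 for 62 with a level below 9 log2, 0.20 for 19 between 9 and 11, 0.22 for 23 between 11 and 12, 0.093 for 82 between 12 and 13, and 0.042 for 24 at 13 or above. The level ranges were chosen after the values were seen. Over all other probe sets the medians in the same ranges lay between -0.086 and -0.012. On the deposited values the ribosomal medians were 0.17 between 12 and 13 and 0.13 at 13 or above, beside 0.010 for 135 and 0.050 for 26 other probe sets. The ribosomal probe sets were 82 of 217 in the first of these ranges and 24 of 50 in the second, where the deposited medians over all probe sets were 0.10 and 0.11. Both the dimmest and the brightest ribosomal probe sets thus showed smaller median differences than those of the ranges between, and the part of background signal, saturation or scaling in this was not tested.

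**Figure D4:**
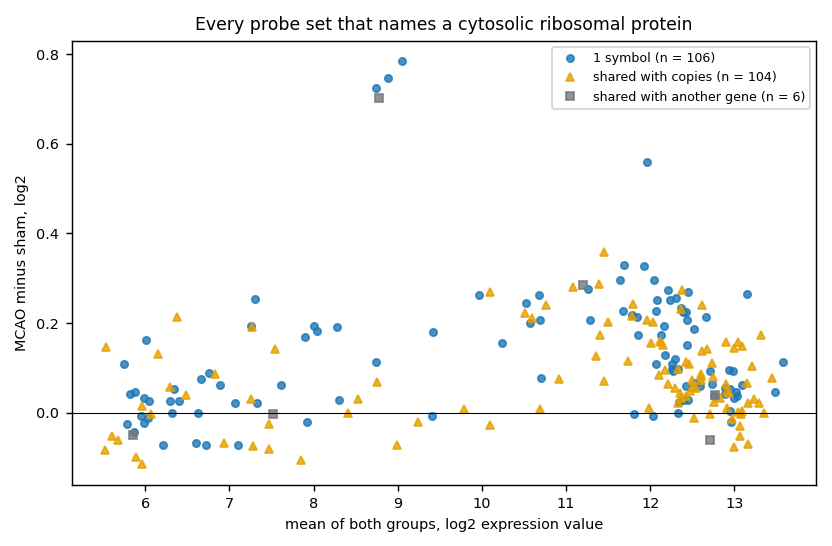
MCAO minus sham difference (log2) of every ribosomal probe set against its mean level over both groups (log2), with circles for probe sets of 1 symbol, triangles for those shared with copies and squares for those shared with another gene. The 3 circles at the top are Rps27l (0.72 to 0.78), the lone circle below them is Rplp0 (0.56), and the points at levels of 13 and above have a median of 0.042.

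Other parts of the translation machinery were described by lists. Beside their counts at an unadjusted p below 0.05 in limma, 1151 of all 18193 genes were higher and 447 lower. The mitochondrial ribosomal proteins, which serve the separate ribosomes of mitochondria, had a median difference of 0.075, with 63 of 76 higher (82.9%). Limma called 0 of them, with 2 higher and 0 lower at an unadjusted p below 0.05, and 2 rose with the block. These were Mrps6, with 9.49, 9.89 and 10.30 log2 in MCAO and 8.43, 9.10 and 8.77 in sham, and Mrpl17. The Mrps6 difference of 1.13 ± 0.23 (SE) had an adjusted p of 0.0822 by limma, 0.0272 on the deposited values and 2.84e-04 with the block. The Mrpl17 difference was 0.27 (adjusted p = 0.422 by limma, 0.0468 with the block), and 0.10 with its probe sets averaged (0.411 with the block).

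Of 41 initiation and elongation factors, 32 were higher with a median of 0.088. Limma called 0, with 3 higher and 0 lower at an unadjusted p below 0.05. Eef1d, a subunit of the exchange factor of elongation factor 1, differed by 0.49 (adjusted p = 0.0878 by limma, 0.00176 with the block), and Eif1ax, which acts in start codon selection, by 0.44 (adjusted p = 0.189 by limma, 0.00493 with the block). With the probe sets of each gene averaged, the differences were 0.23 for Eef1d and 0.051 for Eif1ax, with adjusted p of 0.0603 and 0.706 with the block in limma. Fau, whose precursor yields the small-subunit protein eS30 under a symbol outside the pattern, measured 11.67, 11.81 and 11.64 in MCAO and 11.52, 11.61 and 11.32 in sham, without overlap. Its difference of 0.23 had an adjusted p of 0.568 (limma).

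The genes that make and assemble ribosomes showed smaller shifts. Of 70 assembly factors, 50 were higher with a median of 0.023, and limma called 0, with 3 higher and 0 lower at an unadjusted p below 0.05. Ddx21, an RNA helicase of the nucleolus, differed by 0.25, and Eif6, which keeps the large subunit from joining too early, by 0.24, or 0.11 with its probe sets averaged. Of 15 subunits and factors of RNA polymerase I, which makes ribosomal RNA, 7 were higher with a median of -0.0031. None was called by limma, and none passed an unadjusted p of 0.05.

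Of 26 genes of mTORC1 and S6 kinase signalling, 10 were higher with a median of -0.044. Limma called 0, with 1 higher and 1 lower at an unadjusted p below 0.05, and with the block 1 rose (Eif4ebp1) and 2 fell (Ddit4 and Rraga, a GTPase that brings mTORC1 to lysosomes, with a difference of -0.43, an adjusted p of 0.876 by limma and 0.0300 with the block, and outside the rule for named genes). Ddit4, an inhibitor of mTORC1 induced by stress, measured 8.50, 8.11 and 8.23 in MCAO and 8.60, 8.56 and 8.89 in sham, a difference of -0.40 with an adjusted p of 0.330 by limma and 0.0395 with the block. Eif4ebp1, a repressor of cap-dependent initiation that mTORC1 inactivates, differed by 0.38 (adjusted p = 0.409 by limma, 0.0356 with the block). Of 14 genes of the integrated stress response, 8 were higher with a median of 0.022, and limma called 0, with 1 higher and 0 lower at an unadjusted p below 0.05. Nupr1, a stress-induced cofactor, differed by 0.60 (adjusted p = 0.0666 by limma, 0.00638 with the block).

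**Figure D5:**
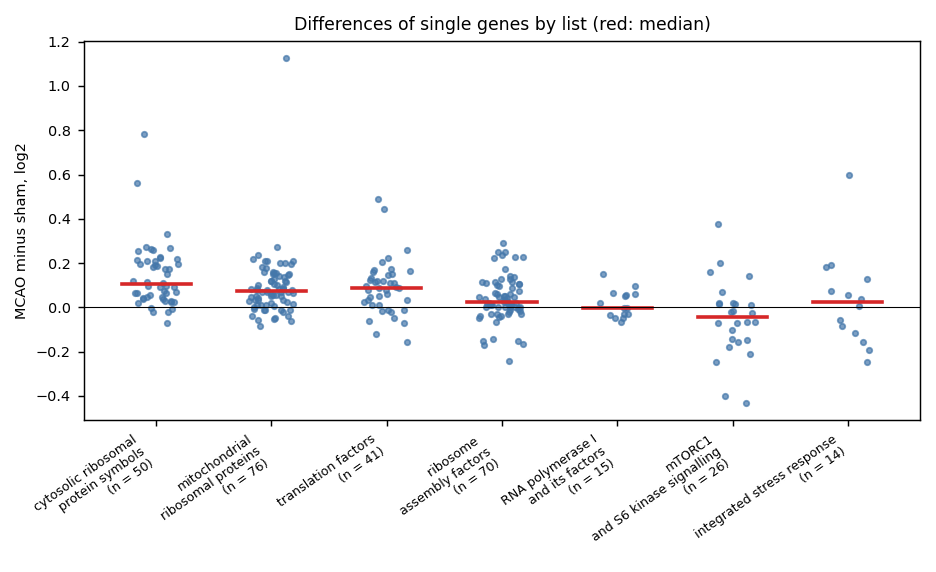
MCAO minus sham difference (log2) of every measured gene of the cytosolic ribosomal proteins and of each companion list, 1 point per gene, a red bar at the list's median and a line at 0. The medians of cytosolic ribosomal proteins (0.10), translation factors (0.088) and mitochondrial ribosomal proteins (0.075) lie above the line, and that of mTORC1 signalling (-0.044) lies below it.

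Markers of several cell types also differed between the groups. Over all 18193 genes, limma called 203 higher and 3 lower, or 878 and 236 with the block. At an unadjusted p below 0.05, 1151 of all genes were higher and 447 lower. Of 14 markers of activated phagocytes, 11 rose by limma (13 with the block), and the median of the list was 8.19 to 8.99 log2 on MCAO arrays against 7.09 to 7.17 on sham arrays. Of 11 markers of dividing cells, 8 rose (11 with the block), with list medians of 8.11 to 8.28 in MCAO and 7.43 to 7.88 in sham. Of 10 astrocyte markers, 2 rose (4 with the block), and of 10 markers of homeostatic microglia, 2 rose (7 with the block). Of 13 neuron markers, 12 were lower with a median difference of -0.17, and limma called 0, with 0 higher and 4 lower at an unadjusted p below 0.05. With the block 1 neuron marker fell, the dopamine receptor gene Drd1. For the resident cells of this niche, 8 of 9 neuroblast markers and 8 of 8 ependymal markers were above the median gene in sham. This was not particular to them: it held for 10 of 10 astrocyte, 10 of 10 homeostatic microglia, 8 of 8 oligodendrocyte and 12 of 13 neuron markers. The counts were lower for activated phagocytes (7 of 14), dividing cells (6 of 11), endothelial cells (4 of 7), choroid plexus (2 of 7) and red blood cells (0 of 4). In MCAO 7 of 9 neuroblast markers were higher, with a median difference of 0.14, and 8 of 8 ependymal markers, with a median of 0.25. Limma called 0 in either list, with 1 neuroblast and 0 ependymal markers higher and 0 lower at an unadjusted p below 0.05. With the block 1 rose in each, Cd24a and Rarres2. The part of these cell types in the ribosomal protein differences was not tested.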

How the data were processed

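The deposited table holds the authors' log2 expression values for 45101 probe sets on 6 arrays; no label or header describes how they corrected background, summarised probes or scaled arrays, so low or high values may be compressed. Probe sets were named by the platform annotation (34958 with 1 symbol, 932 with several, 9211 with none; 64 manufacturer's controls left out). Arrays were quantile normalised, since their upper quantiles differed, and each gene was represented by its probe set with the highest mean over the 6 arrays. Genes were tested with limma 3.58.1 in R 4.3.3 (linear model with moderated variance, 2-sided, Benjamini-Hochberg over 18193 genes, threshold 0.05). The fit was checked on simulated data with independent arrays and differences larger than that of any member. That check does not cover differences of the members' size or arrays that deviate together. Levels of different probe sets were compared only to choose or group probe sets by brightness and to set markers against the median gene in sham. Same-numbered samples deviated together (r = 0.77, 0.44 and 0.48 over all genes for numbers 1, 2 and 3), so fits with the number as a block stand beside results whose call they change. On the deposited values, no gene had the same value on any pair of arrays. Named genes were the 8 members with the smallest p in each direction, the 3 with the largest SD in each group, fixed paralogs, stalk and reference genes, and 2 genes per list by p. Members and lists were chosen with earlier results of these data known. Alternatives covered scaling, probe set choice, dim genes, the variance model, the block and each array left out; testing every probe set, the level ranges and the shared probe sets were added after seeing the data.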

Additional observations from a re-analysis of the deposited data

How the results depend on the processing

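The count of members that were higher stayed within 1.5 times of its main value under every alternative run, from 36 of 50 without sham 3 to 49 of 50 on the values as deposited. The count of calls was small and moved with most settings. It was 2 on the deposited values, with probe sets averaged per gene and with an intensity trend. Over all 18193 genes, 206 were called in the main fit and 188, 193 and 262 under these settings. It was 0 after a shift to a common median and 0 without both arrays numbered 1 (184 and 235 of all genes). With the replicate block it was 4, or 5 on deposited values and 3 with the mean of probe sets (1114, 817 and 845 of all genes). Leaving out 1 array gave 0 to 2 calls (44 to 209 of all genes), and a median of 0.064 without sham 3 to 0.14 without MCAO 3. The median was 0.20 on deposited values, with or without the block, and 0.18 after the shift. Members close to 0 changed sign. On deposited values, with or without the block, Rpl27a was at 0.015, Rps3a1 at 0.067, Rpl37 at 0.017 and Rpl22l1 at 0.050. After the shift they were at 0.0049, 0.056, 0.0064 and 0.040. Without both arrays numbered 1, Rpl37 was at 0.0024, Rpl22l1 at 0.047 and Rpl39 at -0.0073. Leaving out 1 array turned the sign of 17 of the 50 members in at least 1 of the 6 fits, and of 9 without sham 3. For the 7 of these among the named members, the lowest and highest values were -0.15 and 0.042 for Rps27, -0.089 and 0.040 for Rpl27a, -0.091 and 0.039 for Rps3a1, -0.10 and 0.055 for Rpl37, -0.12 and 0.085 for Rpl22l1, -0.0031 and 0.35 for Rps9, and -0.039 and 0.14 for Rpl39. The cause of these changes was not tested. The number of arrays limits the precision of every value, and 15 of the 50 members had a mean below 11 log2 as deposited, where background signal weighs more.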
